A study of Mus musculus with 24 samples.

Results

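The complement component genes C1qa, C1qb, C1qc, C4b, C3, Cfb and Cfp were taken by symbol from the genes present in all 6 deposited count tables, which gives 7 genes of 13290. RNA was sequenced from BV2, an immortalised line of mouse microglia, the macrophages of the brain, and from the extracellular vesicles (EVs) that these cells shed into their medium. Cells received lipopolysaccharide (LPS) at 100 ng/mL, interleukin-10 (IL-10) at 50 ng/mL or TGF-β (transforming growth factor-β) at 50 ng/mL for 72 h, while controls were left untreated. LPS is a bacterial cell wall component that signals through a Toll-like receptor, whereas both cytokines, IL-10 and TGF-β, dampen inflammation. The groups are LPS, IL-10, TGF-β and control EVs and LPS, IL-10, TGF-β and control cells, with 3 libraries each, 24 in all. Every group comes from the same single cell line.

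Complement is a cascade of plasma and tissue proteins that marks targets for removal. In the classical pathway, C1q, assembled from A, B and C chains encoded by C1qa, C1qb and C1qc, recognises a target and sets off cleavage of C4 and then of C3, the protein on which all pathways converge. In the alternative pathway, factor B (Cfb) joins deposited C3 to form a C3-cleaving enzyme that properdin (Cfp) stabilises. Microglia are known as the main source of C1q in the mouse brain, where C1q and C3 take part in the removal of synapses.

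Library totals were 3.02 to 17.98 M counts for EVs and 26.14 to 42.13 M counts for cells. Levels are given as CPM, the count divided by the library total in M counts, as mean ± SD of n = 3 libraries unless single libraries are listed. A count of 0 allowed up to 0.0712 to 0.115 CPM in cell libraries and 0.167 to 0.994 CPM in EV libraries, from 3 counts per library, which covers counting error only. Of 12 markers of microglia and macrophages 11 were listed (P2ry12 was not), and they summed to 2000 to 7720 CPM in EVs and 7110 to 9500 CPM in cells. Cx3cr1 among them had no count in control EVs or in IL-10 cells. The 3 LPS EV libraries stood apart from all other EV libraries. There 2.04% ± 2.09 of listed genes had no count, against 31.3% ± 8.08 in IL-10 EVs, 32.2% ± 15.8 in TGF-β EVs and 31.8% ± 2.48 in control EVs. Of the 116 genes without a count in any cell library, 113 had counts in all 3 LPS EV libraries, with a median of 22.5 CPM, and 3 in IL-10, 3 in TGF-β and 2 in control EVs. Neuronal markers, of which 3 of 5 were listed, summed to 20.1 to 146 CPM in LPS EVs and to at most 14.5 CPM in the other EVs. Astrocyte markers, also 3 of 5, summed to 31.3 to 177 CPM in LPS EVs and to at most 40.5 CPM elsewhere in EVs. The 1 lymphocyte marker listed of 5 had 14.5 to 45.4 CPM in LPS EVs and at most 0.177 CPM in the other EVs. The 1 oligodendrocyte marker listed of 5 went the other way, with 0.686 to 4.31 CPM in LPS EVs against up to 15.8 CPM in IL-10, 50.6 CPM in TGF-β and 60.5 CPM in control EVs. None of 5 fibroblast and 5 hepatocyte markers was listed. No result on LPS EVs can be given without these libraries, and the part of this difference in the results was not tested.

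The C1q genes lie side by side on chromosome 4 in mouse build GRCm38 (GENCODE M21 annotation), all on the minus strand. C1qb spans 136880129 to 136886187, C1qc 136889804 to 136893065 and C1qa 136895917 to 136898803, with 3616 and 2851 bases between them. On chromosome 17, also on the minus strand, C4b spans 34728380 to 34743882, Cfb 34856374 to 34862518 and C3 57203970 to 57228136. Cfp spans 20925454 to 20931555 of chromosome X on the same strand. Sequences around the annotated starts of 4 of the 7 genes, C1qb, C1qc, C3 and Cfp, were found in a RefSeq table of build GRCm38.p6. They run from 250 bases before to 50 bases after the start, at chr4:136886151-136886450, chr4:136892865-136893164, chr17:57228087-57228386 and chrX:20931506-20931805. The RefSeq start of C1qc lies inside its GENCODE span, so part of the sequence before that start is within the gene by GENCODE. The RefSeq start of C1qb lies just before its GENCODE span. The sequences are shown because they include a gene raised by LPS (C3), genes raised by both cytokines (C1qb and C1qc) and one lowered by TGF-β (Cfp). Capitals mark matches, on either strand and with overlaps merged, to the letters searched for 5 kinds of factor. For NF-kB these are GGG and CC with 5 bases of any kind between them, for STAT factors TTC and GAA with 3 between them, and for interferon response elements GAAA and GAAA with 2 between them. For SMAD factors they are CAGACA and for PU.1 GAGGAA. These are factors known downstream of LPS (NF-kB), IL-10 (STAT), interferon and TGF-β (SMAD), and a factor of the macrophage lineage (PU.1).

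C1qb: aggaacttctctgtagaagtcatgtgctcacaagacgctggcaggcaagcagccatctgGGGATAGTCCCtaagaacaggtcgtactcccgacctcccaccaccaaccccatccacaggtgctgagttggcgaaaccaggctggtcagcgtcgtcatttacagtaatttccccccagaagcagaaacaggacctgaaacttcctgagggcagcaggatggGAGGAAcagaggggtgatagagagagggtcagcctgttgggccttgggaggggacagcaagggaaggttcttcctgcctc

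C1qc: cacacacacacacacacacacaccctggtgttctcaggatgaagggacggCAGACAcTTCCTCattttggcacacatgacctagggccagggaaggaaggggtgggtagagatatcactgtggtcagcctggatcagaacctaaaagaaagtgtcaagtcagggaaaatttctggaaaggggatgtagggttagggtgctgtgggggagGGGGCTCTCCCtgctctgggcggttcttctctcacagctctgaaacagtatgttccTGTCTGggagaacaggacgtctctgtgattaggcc

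C3: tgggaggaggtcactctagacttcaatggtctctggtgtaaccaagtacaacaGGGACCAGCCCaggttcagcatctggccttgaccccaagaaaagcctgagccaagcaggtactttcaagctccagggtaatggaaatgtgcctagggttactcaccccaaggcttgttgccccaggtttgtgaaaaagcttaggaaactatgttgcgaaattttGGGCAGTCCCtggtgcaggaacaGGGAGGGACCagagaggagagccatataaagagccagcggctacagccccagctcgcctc

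Cfp: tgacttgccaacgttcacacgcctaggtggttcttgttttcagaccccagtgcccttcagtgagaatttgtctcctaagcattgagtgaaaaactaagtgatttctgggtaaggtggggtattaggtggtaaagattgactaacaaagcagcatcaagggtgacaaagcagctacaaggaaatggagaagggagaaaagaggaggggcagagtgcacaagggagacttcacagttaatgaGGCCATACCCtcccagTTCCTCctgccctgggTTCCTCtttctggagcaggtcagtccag

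Positions are counted from the RefSeq start, whose base is 1 and is preceded by -1. In C3, NF-kB letters matched at 3 places, beginning at -197, -33 and -10. C1qb held them from -191, C1qc from -41 and Cfp from -10. These letters are common, since 50.8% of all 32851 mouse promoters of this length hold them. SMAD letters, present in 21.0% of promoters, occurred in C1qc only among the 4, once from -200 and once from 16. PU.1 letters, in 28.3% of promoters, matched in C1qb, C1qc and, at a pair of places, Cfp. STAT and interferon response letters, held by 8.3% and 3.44% of promoters, matched in none of the 4. A match describes letters and not a bound site.

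All 3 C1q transcripts were higher in cells given IL-10 or TGF-β, and C1qb and C1qc were lower in cells given LPS. C1qb, which encodes the B chain, had 74.6, 95.9 and 91.3 CPM in LPS cells, 641, 552 and 547 CPM in IL-10 cells, 698, 733 and 905 CPM in TGF-β cells and 110, 122 and 99.2 CPM in control cells. All IL-10 and TGF-β libraries lay above all control libraries, and the LPS libraries lay just below them. Differences were tested with edgeR's quasi-likelihood test, with Benjamini-Hochberg adjustment over all genes tested, and a gene is called at an adjusted p under 0.05. C1qb rose 7.06-fold with TGF-β (log2 fold change 2.82, SE 0.1, edgeR adjusted p = 1.59e-09) and 5.85-fold with IL-10 (log2 2.55, SE 0.08, adjusted p = 9.08e-14). It fell 1.33-fold with LPS (log2 -0.41, SE 0.1, adjusted p = 0.00288). The labels do not say whether the libraries of a group come from separate cultures, so these p-values rest on the spread between libraries, part or all of which could be technical. In bulk RNA, fewer cells making a transcript and less of it per cell cannot be told apart.

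C1qc, the C chain gene, moved further in each direction. It had 5.18, 5.1 and 6.44 CPM in LPS cells, 229, 204 and 187 CPM in IL-10 cells, 334, 339 and 407 CPM in TGF-β cells and 16.1, 21.3 and 18.9 CPM in control cells. No group overlapped its neighbour in the order TGF-β, IL-10, control, LPS. C1qc rose 19.2-fold with TGF-β (log2 4.27, SE 0.11, edgeR adjusted p = 4.95e-11) and 12.3-fold with IL-10 (log2 3.62, SE 0.1, adjusted p = 2.73e-14), and fell 3.52-fold with LPS (log2 -1.82, SE 0.16, adjusted p = 9.79e-09).

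C1qa, the A chain gene, was nearly silent without cytokine. LPS cells held 1, 4 and 1 counts of it (0.0237, 0.14 and 0.0305 CPM) and control cells 7, 2 and 5 counts (0.26, 0.0627 and 0.169 CPM). Against this, IL-10 cells held 259, 184 and 156 counts and TGF-β cells 405, 383 and 1084 counts, which is 5.63 ± 1.36 and 19.4 ± 10.3 CPM. TGF-β library 3, at 31.3 CPM, stood well above the 12.4 and 14.7 CPM of the other TGF-β libraries. C1qa rose 119-fold with TGF-β (log2 6.9, SE 0.57, edgeR adjusted p = 7.31e-05) and 38.4-fold with IL-10 (log2 5.26, SE 0.4, adjusted p = 1.41e-08). Its LPS and control libraries overlapped, and the gene had too few counts there for the test. In both cytokine comparisons C1qa passed the filter on low counts only through the treated libraries.

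Although the C1q protein needs all its chains, their transcripts as counted were far from equal. Exon lengths are from GENCODE M21, and the annotation behind the counts is not given, so levels compared between genes carry that uncertainty. Per kilobase of exon, C1qa was 0.0332% to 0.152% of the C1qb level in LPS cells, 0.855% to 1.16% in IL-10 cells, 1.86% to 3.62% in TGF-β cells and 0.0538% to 0.248% in control cells. The C1qc level over the C1qb level per kilobase was 0.0362 ± 0.0054 in LPS cells, 0.201 ± 0.00709 in IL-10 cells, 0.262 ± 0.00802 in TGF-β cells and 0.0959 ± 0.0124 in control cells. The groups did not overlap in this ratio. With 3 libraries against 3, the two-sided exact permutation p was 0.1 for each treatment against control, the smallest this design allows (0.2 after adjustment over 6 comparisons). In EVs the same ratio was 0.214 ± 0.0557 with LPS, 0.328 ± 0.156 with IL-10, 0.266 ± 0.0237 with TGF-β and 0.151 ± 0.127 in controls, with exact permutation p of 0.5, 0.2 and 0.4.

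**Figure D1:**
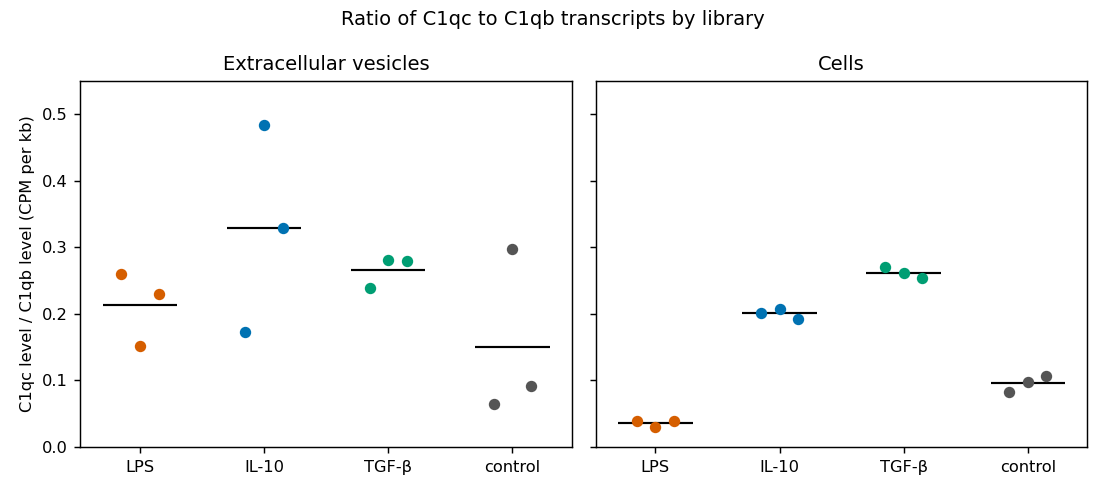
Level of C1qc divided by that of C1qb, both in CPM per kilobase of exon (vertical axis), in single libraries (points) with the mean of 3 (lines), for EVs (left) and cells (right) by treatment. In cells the groups are separate, from 0.0362 in LPS cells to 0.262 in TGF-β cells, while in EVs the treated libraries overlap the controls.

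C4b encodes complement C4, which C1q-bound proteases cleave. IL-10 and TGF-β moved it in opposite directions. It had 11, 8.06 and 11.1 CPM in LPS cells, 775, 859 and 729 CPM in IL-10 cells, 49.3, 47.2 and 35.6 CPM in TGF-β cells and 149, 140 and 144 CPM in control cells. The 4 groups were fully separate, IL-10 cells being highest and LPS cells lowest. C4b rose 6.09-fold with IL-10 (log2 2.61, SE 0.07, edgeR adjusted p = 8.98e-15). It fell 3.26-fold with TGF-β (log2 -1.7, SE 0.12, adjusted p = 1.51e-06) and 14.9-fold with LPS (log2 -3.9, SE 0.1, adjusted p = 7.88e-16). Mouse C4a is a near-identical neighbouring copy that was not among the listed genes, so reads of the copies could have been shared and the C4b value is uncertain to that extent.

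C3, the central component, was the member with the highest count in LPS cells. It had 1210, 1250 and 1180 CPM in LPS cells, 286, 263 and 250 CPM in IL-10 cells, 140, 148 and 79.8 CPM in TGF-β cells and 140, 134 and 144 CPM in control cells. LPS libraries lay far above all others and IL-10 libraries above control, while TGF-β libraries overlapped the controls. C3 rose 8.3-fold with LPS (log2 3.05, SE 0.07, edgeR adjusted p = 1.63e-17) and 2.13-fold with IL-10 (log2 1.09, SE 0.06, adjusted p = 4e-10). With TGF-β its log2 difference was -0.18 (SE 0.27, adjusted p = 0.683), and 0.07 (adjusted p = 0.516) without TGF-β library 3, the one at 79.8 CPM.

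Cfb, whose product supplies the enzyme of the alternative pathway, was found in LPS cells and hardly elsewhere. LPS cells held 408, 263 and 361 counts (9.96 ± 0.949 CPM), IL-10 cells 1, 0 and 2 counts, and neither TGF-β nor control cells held any. Set against the limit that 3 counts per library allow, Cfb was at least 97.6-fold higher in LPS than in control cells (edgeR adjusted p = 9.91e-12). It passed the filter on low counts only through the LPS libraries, and in the IL-10 and TGF-β comparisons with control it was not tested. The annotation places the gene model Gm20547 over 6107 bases of Cfb on the same strand and C2 at 85 bases from it, and neither is among the listed genes, so assignment of reads between them is uncertain.

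Cfp, which encodes properdin, was lowest with TGF-β. It had 244, 322 and 307 CPM in LPS cells, 168, 150 and 130 CPM in IL-10 cells, 7.24, 9.49 and 9.53 CPM in TGF-β cells and 177, 189 and 177 CPM in control cells. In CPM, TGF-β libraries lay far below all controls, IL-10 libraries less far below them, and LPS libraries above them. Cfp fell 20.7-fold with TGF-β (log2 -4.37, SE 0.11, edgeR adjusted p = 1.84e-11) and rose 1.53-fold with LPS (log2 0.62, SE 0.09, adjusted p = 4.12e-05). With IL-10 the log2 difference was -0.12 (SE 0.07, adjusted p = 0.267), and it passed at -0.2 (adjusted p = 0.0383) without IL-10 library 1.

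Counted over the members, LPS cells had 3 higher (C3, Cfb and Cfp) and 3 lower (C1qb, C1qc and C4b) of 6 tested, where 28.6% of all 11951 genes tested were called higher and 27.5% lower. In IL-10 cells 5 of 6 tested were higher (the C1q genes, C4b and C3) and 0 lower, against 12.3% and 10.9% of 11790 genes; no member had an unadjusted p under 0.05 for a fall. In TGF-β cells 3 of 6 tested were higher (the C1q genes) and 2 lower (C4b and Cfp), against 14.5% and 15.4% of 11798 genes. The median log2 fold change of the tested members was 0.11 with LPS, 2.58 with IL-10 and 1.32 with TGF-β, beside 0.01, 0 and 0.01 over all genes tested. These tallies include C1qa with IL-10 and TGF-β and Cfb with LPS, which passed the filter on low counts only through the treated libraries. The 3 comparisons share their control libraries. Each called member kept its direction and call in every alternative run for these comparisons.

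**Figure D2:**
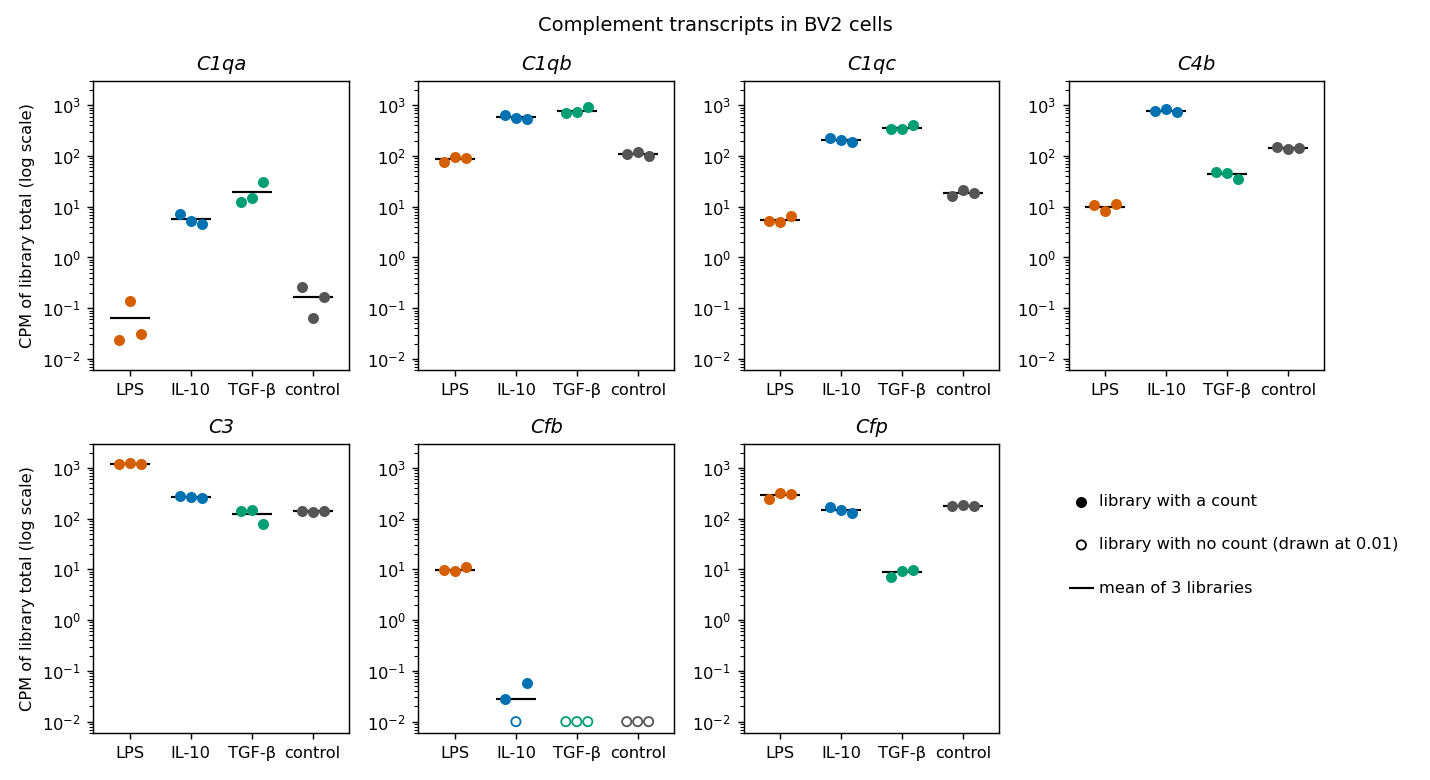
CPM of library total (vertical, log scale) of each complement gene in single cell libraries (points), with the mean of 3 (lines), by treatment. Open points mark libraries with no count and are drawn at 0.01. C1q points are highest with TGF-β, C4b points with IL-10, and C3 and Cfb points with LPS, while Cfp drops to 8.75 CPM on average with TGF-β.

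Direct contrasts between the treatments were taken from 1 fit of the 12 cell libraries, in which all 7 members were tested. Between LPS and IL-10 cells every member was called, as were 53.3% of 12148 genes. C4b was 91.1-fold (log2 -6.51, edgeR adjusted p = 1.11e-13) and C1qc 43.3-fold (log2 -5.44, adjusted p = 2.36e-16) lower in LPS than in IL-10 cells. C1qb was 7.74-fold lower, C3 3.9-fold higher and Cfp 1.67-fold higher in LPS cells. Cfb differed at an adjusted p of 2.02e-09, with 263 to 408 counts per library in LPS cells against at most 2 in IL-10 cells. In this fit Cfb passed the filter on low counts through the LPS libraries alone. C1qa was called lower (adjusted p = 9.52e-08), with 1, 4 and 1 counts in LPS cells against 156 to 259 per library in IL-10 cells. The LPS mean of 0.0646 CPM lies under the 0.0892 CPM that a count of 0 allows, so no fold is given, and the gene passed the filter through the cytokine libraries alone. Between LPS and TGF-β cells all 7 were called too, beside 57.1% of genes. C1qc was 68-fold and C1qb 9.35-fold lower in LPS cells, C4b 4.6-fold lower, Cfp 31.7-fold higher and C3 9.37-fold higher. C1qa was called lower (adjusted p = 3.5e-09), against 383 to 1084 counts per library in TGF-β cells, and Cfb was at least 102-fold higher in LPS cells.

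The cytokines IL-10 and TGF-β differed from each other in 5 members, where 38.3% of all genes differed. C4b was 19.8-fold higher in IL-10 than in TGF-β cells (log2 4.31, SE 0.14, edgeR adjusted p = 4.73e-12), Cfp 19-fold higher (log2 4.25, adjusted p = 1.4e-12) and C3 2.4-fold higher (log2 1.26, adjusted p = 0.000826). C1qc was 1.57-fold lower in IL-10 cells (log2 -0.65, adjusted p = 3.85e-05). C1qa was 3.09-fold lower (log2 -1.63, adjusted p = 0.000832), and -1.13 without TGF-β library 3. C1qb had a log2 difference of -0.27 (SE 0.11, adjusted p = 0.0623), which passed in DESeq2 (-0.28, adjusted p = 0.0434) and with only the 6 libraries of these groups (-0.29, adjusted p = 0.0272). Without single libraries its adjusted p ran from 0.0183, without LPS library 1, to 0.25. It passed also without LPS library 2 (0.0488), IL-10 library 1 (0.0432) or TGF-β library 1 (0.025). Cfb, with 3 counts against 0, did not pass (adjusted p = 0.116).

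Cells of each treatment held a different mixture of complement transcripts. Summed per kilobase of exon, the 7 transcripts reached 492 ± 36.3 CPM in LPS cells, 922 ± 74.7 in IL-10 cells, 957 ± 125 in TGF-β cells and 268 ± 13.6 in control cells. TMM scaling factors were 0.903 to 0.926 in IL-10 cells and 0.998 to 1.04 in TGF-β cells. Such scaling would raise the IL-10 sum relative to the TGF-β sum, so these groups are not ranked by it. In LPS cells C3 made up 48.1% ± 3.44 of this sum, Cfp 34.0% ± 2.55 and C1qb 16.3% ± 0.962. In IL-10 cells C1qb made up 57.8% ± 1.57, C4b 15.1% ± 1.54 and C1qc 11.6% ± 0.251. In TGF-β cells C1qb made up 74.7% ± 0.84 and C1qc 19.5% ± 0.429, with C4b at 0.828% ± 0.228 and Cfp at 0.528% ± 0.0657. In control cells Cfp and C1qb had similar shares of 38.9% ± 0.733 and 37.8% ± 2.07. Per kilobase, C1qb stood above 99.7% of 13250 genes in TGF-β cells and 99.5% in IL-10 cells, and C3 above 98.6% in LPS cells.

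**Figure D3:**
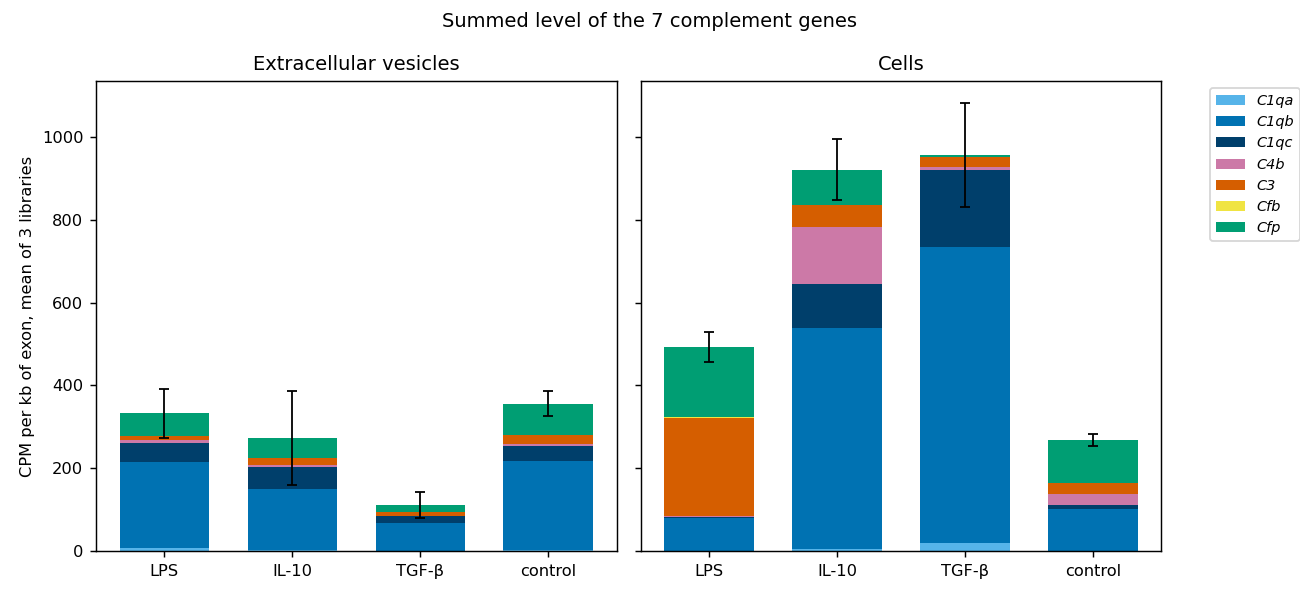
Summed level of the 7 genes in CPM per kilobase of exon (vertical axis), stacked by gene, as means of 3 libraries for EVs (left) and cells (right); error bars are the SD of the sum. In cells the sum is 922 with IL-10 and 957 with TGF-β, mostly C1qb, against 492 with LPS, mostly C3 and Cfp, and 268 in controls; in EVs it runs from 111 with TGF-β to 356 in controls.

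Of 48 other genes of the complement system, a list made with earlier results of these data known, 21 were listed in the tables. With LPS 7 of the 17 tested were higher and 9 lower, where 28.6% and 27.5% of all genes tested were called. Their median log2 fold change was -0.37, beside 0.01 over all genes. The anaphylatoxin receptor C5ar1 rose 5.03-fold (44 ± 4.69 against 8.35 ± 0.748 CPM), and the C1 protease gene C1ra 1.82-fold. C1s1, another C1 protease gene, was called higher, at 5.96 ± 2 CPM against 0.0225 ± 0.0389 CPM. Its control level lies under what a count of 0 allows. It passed the filter on low counts only through the LPS libraries. The complement receptor integrin Itgax fell 5.36-fold (167 ± 3.59 against 854 ± 55.8 CPM). Its partner Itgb2 fell 1.38-fold, the lectin-type recognition genes Fcna and Colec12 fell 2.84-fold and 1.98-fold, and the regulator clusterin (Clu) fell 1.53-fold.

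With IL-10, 8 of 16 were higher and 1 lower (all genes 12.3% and 10.9%), with a median log2 of 0.25 (all genes 0). Clusterin rose 2.37-fold (981 ± 3.7 against 461 ± 4.23 CPM) and the receptor C5ar2 3.13-fold. Fcnb, C1ra, C3ar1 and Itgam rose 1.36-fold to 1.56-fold, and Itgb2 fell 1.18-fold. With TGF-β, 6 of 16 were higher and 3 lower (all genes 14.5% and 15.4%), with a median log2 of 0.2 (all genes 0.01). C5ar2 rose 16.7-fold (10.2 ± 0.813 against 0.603 ± 0.173 CPM), Fcnb 2.45-fold, the C1q-binding protein gene Calr 1.44-fold, C3ar1 1.37-fold, Colec12 1.34-fold and clusterin 1.24-fold. Itgb2 fell 1.64-fold. The list's counts describe it and were given no test of their own.

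Genes with the pattern most like each member were found among 10102 genes by the root mean square difference of centred log2(CPM + 0.5) over the 12 cell libraries. For C3 these were Ppfibp2 (0.28), Ralgps1 (0.28) and Ccdc125 (0.33). Cd5l (0.97) and Mrc1 (1.22) were among the genes near C4b. Cfp lay nearest to Ifitm6 (0.45), Syn1 (0.46) and Ifitm3 (0.5). Syn1 is also its neighbour on chromosome X, 4449 bases away on the same strand, with 26.6 CPM in LPS, 21.0 in IL-10, 1.49 in TGF-β and 28.6 in control cells. Whether reads past the end of one gene enter the other was not tested. C1qb was nearest to Spp1 (0.58), Ptger4 (0.6) and Il4ra (0.72). C1qc was nearest to Bambi (1.22), Htr2b (1.23) and Cxcr2 (1.39), and C1qa to Htr2b (1.02), Rnase4 (1.19) and Kynu (1.2). By the same measure the members themselves deviated from their own means by 2.42 (C1qc), 2.29 (C4b), 2.16 (C1qa) and 1.4 (C1qb). For Cfp this was 1.96, for Cfb 1.89 and for C3 1.34. The nearest genes of C1qc and C1qa are therefore loose matches. Cfb, with its counts nearly all in LPS cells, lay nearest to Fpr1 (0.12), Spic (0.14) and Cxcl2 (0.14). Among the members themselves C1qa and C1qc differed by 0.71, C3 and Cfb by 0.79 and C1qa and C1qb by 0.84, and all pairs that join a C1q gene with C3, C4b, Cfb or Cfp by at least 2.06. The 0.5 added to CPM shrinks changes near 0 CPM, so distances that involve Cfb or C1qa depend on it.

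In EVs the same transcripts were scattered, and no member was called for any treatment. C1qb was present in every EV library, at 230, 152 and 293 CPM with LPS, 104, 181 and 197 CPM with IL-10, 111, 54.7 and 54.6 CPM with TGF-β and 135, 271 and 299 CPM in controls. The TGF-β EVs lay below all control EVs, and the other groups overlapped them. With TGF-β the log2 difference was -1.46 (SE 0.55, unadjusted p = 0.0325, edgeR adjusted p = 0.999), with IL-10 -0.49 (adjusted p = 1) and with LPS -0.25 (adjusted p = 0.927). C1qc was also found in all, at 107, 41.1 and 119 CPM with LPS, 31.9, 156 and 115 CPM with IL-10, 47.1, 27.1 and 27.1 CPM with TGF-β and 15.5, 143 and 48.2 CPM in controls, with overlap throughout.

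C1qa was counted in all 3 LPS EV libraries (24, 25 and 74 counts, 8.52 ± 3.15 CPM) but in only 1 library each of IL-10 EVs (29 counts), TGF-β EVs (8 counts) and control EVs (33 counts). The log2 difference between LPS and control EVs was 1.8 (SE 2.13, edgeR adjusted p = 0.821), and it passed (adjusted p = 0.0371) without control EV library 2, the only control with counts. Of the 116 genes silent in cells, 112 had a mean level in LPS EVs at or above that of C1qa, and 115 at or above that of Cfb.

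C3 in EVs depended on single libraries, with 9.84, 68.6 and 42.8 CPM with LPS, 23.9, 15.8 and 212 CPM with IL-10, 0, 125 and 0 CPM with TGF-β and 309, 3.37 and 36.7 CPM in controls. The log2 difference with LPS was -1.75 (SE 1.34, edgeR adjusted p = 0.639) and turned to 0.65 without control EV library 1, which held 5548 C3 counts. C4b also rested on single libraries, with 4.8, 125 and 0.956 CPM with LPS, 0, 7.34 and 91 CPM with IL-10, 0 in all TGF-β EVs and 0, 0 and 70.7 CPM in controls. Cfp had 145, 104 and 41.3 CPM with LPS, 47.7, 80.4 and 129 CPM with IL-10, 0, 73.7 and 16.5 CPM with TGF-β and 244, 27.6 and 124 CPM in controls. Cfb had at most 27 counts in any EV library and none in 7 of the 12. For C1qc, C4b, C3 and Cfp the log2 differences from control EVs that were tested ran from -1.88 to 0.57, with standard errors of 0.77 to 2.99 and edgeR adjusted p of 0.639 or more.

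Members tested numbered 6 with LPS, 5 with IL-10 and 4 with TGF-β, and edgeR called 0 of each. Over all genes it called 13.9% of 12216 higher and 0.237% lower with LPS, and 0 with IL-10 or TGF-β (of 8992 and 9093 genes, of which 177 and 360 had an unadjusted p under 0.05). DESeq2 called 90 genes with IL-10 and 121 with TGF-β. In members the unadjusted p was under 0.05 only for C1qb with TGF-β. C6, a gene of the terminal pathway and among the other complement genes, was called higher in LPS EVs, with 20 ± 8.81 CPM against no count in control EVs. It passed the filter only through the LPS libraries, and its level there lies beside the 22.5 CPM median of the genes silent in cells. With all 12 EV libraries in 1 fit, and without any 1 LPS EV library, 0 genes were called between LPS and control EVs.

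**Figure D4:**
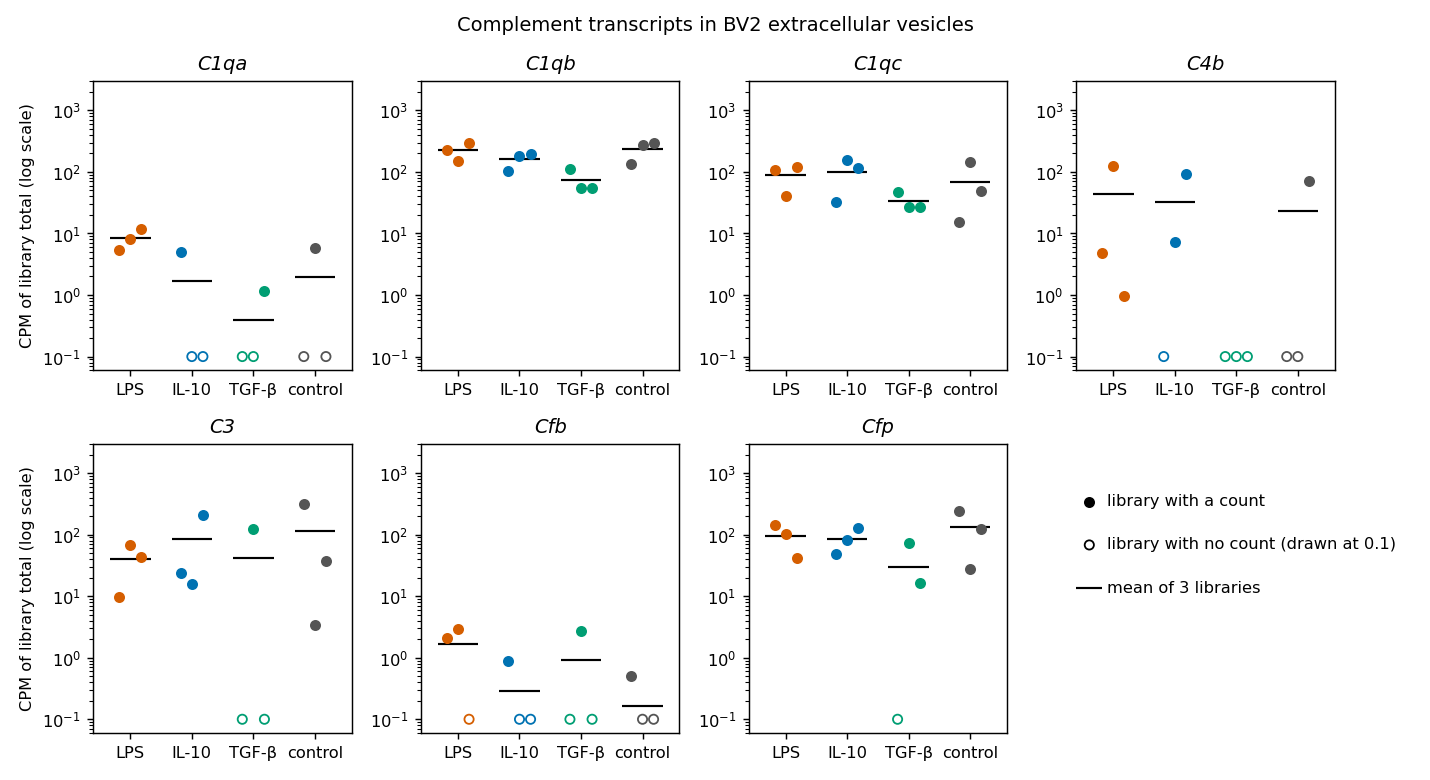
CPM of library total (vertical, log scale) of each complement gene in single EV libraries (points), with the mean of 3 (lines), by treatment; open points mark libraries with no count, drawn at 0.1. C1qb and C1qc have counts in every library, whereas C1qa, C4b, C3, Cfb and Cfp each have no count in at least 1 library.

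Set against the cells of the same treatment, LPS EVs held less C3 and Cfp and more C1qb and C1qc, and TGF-β EVs less C1qb, C1qc and C4b. More C1qb and C1qc was not particular to LPS EVs. Control EVs also averaged above control cells, uncalled, with log2 1.15 for C1qb (edgeR adjusted p = 0.16) and 2 for C1qc (0.296). In LPS EVs, C3 was 38.8-fold lower than in LPS cells (40.4 ± 29.4 against 1210 ± 37.4 CPM; log2 -5.28, SE 0.57, edgeR adjusted p = 0.000595) and Cfp 3.55-fold lower (log2 -1.83, adjusted p = 0.0148, or 0.0724 without LPS EV library 2; log2 -2.45 without LPS EV library 1). C1qc was 13.8-fold higher in LPS EVs (89 ± 42 against 5.57 ± 0.754 CPM; log2 3.79, SE 0.52, adjusted p = 0.000984). C1qa was called higher too (adjusted p = 0.000936), with 24, 25 and 74 counts in LPS EVs against 1, 4 and 1 in LPS cells. Those cell counts average 0.0646 CPM, under the 0.0892 CPM that a count of 0 allows, so no fold is given, and the gene passed the filter on low counts only through the EV libraries. C1qb was 2.19-fold higher (log2 1.13, adjusted p = 0.028), a call lost without LPS EV library 3 (0.0942) or LPS cell library 1 (0.115), 2 (0.076) or 3 (0.0819). Cfb, with 9, 9 and 0 counts in LPS EVs, had a log2 of -2.94 (adjusted p = 0.0535), which passed in DESeq2 (0.0137) and without LPS EV library 1 (0.0347) or 3 (0.0211). These are 5 of 7 members called, beside 40.5% of 13113 genes.

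In IL-10 EVs C1qb was 3.59-fold lower than in IL-10 cells (161 ± 49.5 against 580 ± 52.6 CPM; log2 -1.84, SE 0.23, edgeR adjusted p = 0.0184) and was the only call among 6 tested, beside 17.7% of 11447 genes. Without any 1 of the IL-10 cell libraries its adjusted p was 0.107 to 0.117. C4b averaged 32.8 ± 50.5 CPM in IL-10 EVs and 788 ± 66.1 CPM in IL-10 cells (log2 -4.76, adjusted p = 0.151). Without IL-10 EV library 3, C4b (-7.73, adjusted p = 0.019), C3 (-3.57, 0.00374) and Cfp (-1.1, 0.0243) passed, and without IL-10 EV library 1 so did C1qa (0.00805), then at 0 in the EVs left.

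In TGF-β EVs C1qb was 8.75-fold lower than in TGF-β cells (73.5 ± 32.6 against 779 ± 111 CPM; log2 -3.13, edgeR adjusted p = 0.00545) and C1qc 8.79-fold lower (33.8 ± 11.6 against 360 ± 40.7 CPM; log2 -3.14, adjusted p = 0.00351). C4b, without a count in TGF-β EVs, was called lower (edgeR adjusted p = 0.0136, and 0.0827 to 0.0895 without any 1 TGF-β cell library). The limit from 3 counts per library gives at least 94.4-fold for these libraries, but covers counting error only. EV libraries of 1 group differed by far more than that, with C4b at 0, 0 and 70.7 CPM in control EVs, so C4b may be less reduced than this limit says. C4b passed the filter on low counts only through the cell libraries. C1qb, C1qc and C4b are 3 calls among 6 tested, beside 18.4% of 11389 genes. C1qa passed in DESeq2 (-5.4, adjusted p = 0.00416) and without TGF-β EV library 3 (0.0246), C3 without TGF-β EV library 2 (0.00754), each then at 0 in the EVs left, and Cfp, higher in EVs, without TGF-β EV library 1 (2.59, 0.0381). Between control EVs and control cells, edgeR called 0 of 5 members tested, beside 10.7% of 11427 genes. C1qb was the 1 member with an unadjusted p under 0.05 there (log2 1.15, unadjusted p = 0.0289, edgeR adjusted p = 0.16), and DESeq2 called it (1.2, adjusted p = 0.0337). Without control EV library 1, C1qb (1.39, 0.00495) and C1qc (2.39, 0.036) passed, and without control EV library 3, the only control EV library with C4b counts, C4b passed as lower in EVs (0.0139).

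Whether a treatment moved a transcript differently in EVs than in cells was tested as the interaction of treatment and compartment in the 12 libraries concerned. These fits, and those of EVs against cells, used 1 estimate of spread per gene for both compartments. The spread could differ widely, as for C3, with an SD of 167 CPM in control EVs and 5.08 CPM in control cells. Its effect on the standard errors was not tested. The change of C1qb was lower in EVs than in cells with TGF-β (difference of log2 fold changes -4.34, SE 0.53, edgeR adjusted p = 0.0179) and with IL-10 (-3, SE 0.47, adjusted p = 0.0329), where 0.31% and 0.285% of all genes were called. For LPS, C3 (-4.95, SE 1.53, adjusted p = 0.0497) and Cfb (-8.03, SE 2.33, adjusted p = 0.048) passed narrowly among 7 tested, beside 16.1% of genes. The Cfb value depends on the prior count of the fit, since control cells hold no count of it. Both C1qb calls were lost without any 1 of the cell libraries in the fit, at an adjusted p of 0.132 to 0.175 with IL-10 and 0.0904 to 0.122 with TGF-β. The C3 and Cfb calls were lost with other scalings and without most single libraries. Without control EV library 1 the differences were -2.51 for C3 and -2.97 for Cfb. C1qc with TGF-β had a difference of -5.16 (adjusted p = 0.0666), which passed in DESeq2 (2.01e-05). It passed too without control EV library 1 (-5.65, 0.0054), 2 (-3.98, 0.0197) or 3 (-5.41, 0.0409) and without TGF-β EV library 1 (-5.44, 0.0334) or 2 (-5, 0.0407). With LPS, C1qa (adjusted p = 0.00245) and C1qc (3.05, 0.03) passed without control EV library 2, and C4b without control EV library 3 (0.00793), where the control EVs left had no count of C1qa or C4b. C1qb had a difference of -0.01 with LPS, which turned to 0.19 with RLE scaling and 0.28 with library totals.

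**Figure D5:**
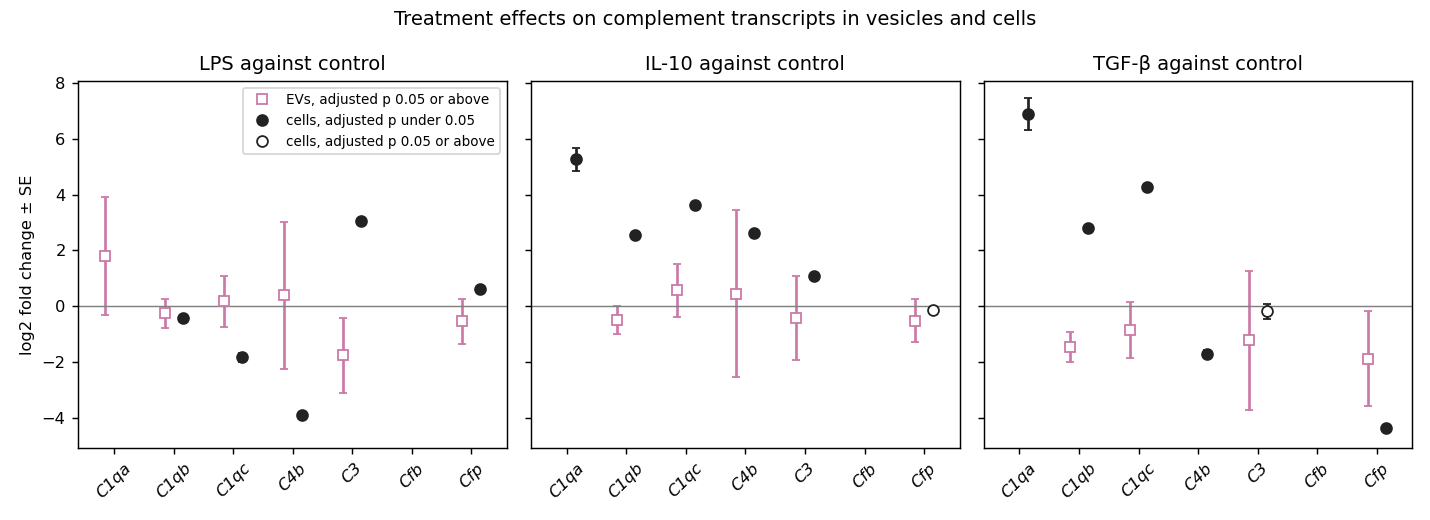
Log2 fold change of each member against control (vertical axis; bars are the standard error) in EVs (squares) and cells (circles) for LPS, IL-10 and TGF-β; filled points have an adjusted p under 0.05. Comparisons not tested, and those against a group with no count (Cfb with LPS in cells), are left out. Cell changes reach 6.9 for C1qa with TGF-β (standard error 0.57), and the EV changes, none of them called, have standard errors of 0.49 to 2.99.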

How the data were processed

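RNA of BV2 cells and of their EVs was amplified with SMART-Seq v4 and made into Nextera XT libraries, per the labels' protocols. The authors deposited 6 tables of raw counts per gene, 1 for each treatment and compartment beside its controls, and the control columns of a compartment are identical across tables. The submitters' processing notes name DESeq2 without a version. Which aligner and which genome build were used is not given in the sources used here. Columns name groups only, so numbers 1 to 3 identify libraries and pair nothing, and 0 columns were left unmapped. Listed genes total at least 240 counts over the 24 libraries.

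The deposited counts were compared in edgeR 4.0.16 with TMM scaling, its filterByExpr filter and a robust quasi-likelihood fit, and p-values were adjusted by Benjamini-Hochberg over all genes tested (threshold 0.05). Fits held 3 against 3 libraries, or 12 for direct contrasts and for the interaction of treatment and compartment. A standard error is the log2 fold change over the square root of F. CPM values are of library totals. Levels per kilobase use GENCODE M21 exon lengths, found for 13250 entries. C1q chain ratios were compared by exact permutation of 20 assignments. Alternatives were DESeq2 1.42.0, RLE scaling, library totals, no filter beyond 1 count, other sets of libraries in the fit, and leaving out each library. The procedure was run on simulated counts for LPS against control in cells and in EVs, and for control EVs against control cells. Fits of 12 libraries were not simulated, and the outcome is not given here.

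Named were all 7 members, the 3 genes nearest to each member, and other complement genes that were called and averaged 50 or more counts in 1 of the groups. These other genes (at most 8 per comparison, by adjusted p) were named for treated against control only. Those called in the remaining comparisons are not named. A gene that these rules name is not reported here. Members, lists and rules were chosen with earlier results of these data known. Recipient cells given EVs, which the series text describes, were not analysed here. Scripts ran in R 4.3.3 with limma 3.58.1 and in Python 3.11.15 with numpy 2.4.6, pandas 2.3.3 and matplotlib 3.10.9.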

Additional observations from a re-analysis of the deposited data

Results flagged for a closer look

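In 4 cases a treatment effect differed between EVs and cells by the interaction test. For LPS the effect on C3 was lower in EVs than in cells by a log2 of -4.95 and that on Cfb by -8.03. For C1qb the effect of IL-10 was lower in EVs by -3 and that of TGF-β by -4.34. C3 in control EVs ranged from 19 to 5548 counts between libraries, and Cfb in EVs never exceeded 27 counts. The C3 and Cfb calls were lost with other scalings and without most single libraries. The size of the Cfb value depends on the prior count of the fit. Both C1qb calls were lost when any cell library in the fit was left out.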

How the results depend on the processing

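In cells, every member called against control or in a direct contrast kept its direction and call under DESeq2, RLE scaling, the filter, the other sets of libraries and each library left out. EV results did not. DESeq2 called 2685 genes in LPS EVs, 90 in IL-10 EVs and 121 in TGF-β EVs against control EVs, and 3988 in IL-10 EVs, 3893 in TGF-β EVs and 3035 in control EVs (1 member) against their cells. For the interaction it called 1 member with LPS, 703 genes with IL-10 and 785 genes (3 members) with TGF-β. With all 12 EV libraries in 1 fit, LPS EVs had 0 calls against control. RLE scaling and library totals each left 0 members called in the LPS interaction: C3 had -4.63 (adjusted p = 0.0689) and -4.65 (0.0803), Cfb -7.71 (0.0586) and -7.69 (0.0616). C1qb in that interaction, at -0.01, became 0.19 with DESeq2, 0.19 with RLE scaling and 0.28 with library totals. The cause was not tested. With TMM-scaled totals, some levels per kilobase in cells moved by more than their SD. In IL-10 cells C1qb went from 533 to 584 CPM, C4b from 138 to 152 and C3 from 51.8 to 56.8. In LPS cells C3 went from 236 to 221 CPM.

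Without single libraries, calls against control EVs ran from 0 to 2599 genes and 0 to 1 members with LPS. EVs against cells gave 3432 to 7296 genes with LPS, 0 to 4422 genes and 0 to 4 members with IL-10, 340 to 4071 genes with TGF-β, and 0 to 4175 genes and 0 to 2 members in controls. Interactions gave 1575 to 3587 genes and 0 to 4 members with LPS, 2 to 272 genes and 0 to 1 members with IL-10, and 3 to 432 genes and 0 to 2 members with TGF-β. Some uncalled log2 differences changed sign, and the widest ranges include fits against a group left without a count, which depend on the prior count. In EVs against control these were C1qc (-0.31 to 1.4), C3 (-2.33 to 0.65), C4b (-3.15 to 10.95) and Cfp (-1.22 to 0.17) with LPS, C3 (-2.23 to 2.04), C4b (-2.56 to 11.12) and Cfp (-0.99 to 0.22) with IL-10, and C1qc (-1.34 to 0.38) and C3 (-12.79 to 1.18) with TGF-β. In EVs against cells they were C4b with LPS (-1.89 to 2.18) and C3 in controls (-2.81 to 0.2), and in cells C3 with TGF-β (-0.35 to 0.07). In interactions they were C1qb with LPS (-0.32 to 0.48), C1qa (-13.7 to 3.32), C3 (-3.34 to 0.94), C4b (-5.15 to 9.73) and Cfp (-0.82 to 0.36) with IL-10, and C3 (-13.95 to 1.35) and C4b (-10.8 to 1.69) with TGF-β. No paired analysis was possible because the columns carry group names and numbers that the labels do not tie to shared cultures. C1qa had 1 to 7 counts per library in LPS and control cells, too few for a test between them.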
